A study of Gallus gallus with 4 samples.

Results

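The genes described here code for the machinery of oxidative phosphorylation in the mitochondrion: subunits of respiratory complexes I to IV, cytochrome c, subunits of ATP synthase (complex V), and a few factors that assemble them. They were chosen by symbol, as every gene whose symbol starts with NDUF, UQCR, ATP5, COX4 to COX8, SDHA to SDHD, CYC1 or CYCS and whose RefSeq accession stands on the array. The gene table of chicken assembly GRCg7b holds 88 such symbols, and 37 of them had a named probe on the array. All 37 were measured, with signal well above background and no saturated spot on any of the 4 arrays, among 4872 named genes measured in all. By symbol, 15 genes belong to complex I, 3 to complex II, 3 to complex III, 5 to complex IV and 7 to complex V. The rest are cytochrome c (CYCS) and 3 assembly factors. This places COX7A2L in complex IV and ATP5S in complex V, though neither is grouped with the subunits by role below. Genes encoded in the mitochondrial genome were not analysed here.

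Complex I takes electrons from NADH and complex II takes them from succinate, and both pass them to ubiquinone. Complex III moves them on to cytochrome c, and complex IV hands them to oxygen. Complexes I, III and IV pump protons across the inner membrane, and complex V uses the return of those protons to make ATP. In liver this chain supplies the ATP spent on gluconeogenesis, on protein synthesis and, in birds, on uric acid synthesis, and much of its fuel is the NADH of fatty acid oxidation.

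Liver RNA of coloured broilers aged 35 days was compared between 2 groups of 2 arrays each. Broilers of both groups lived in individual cages with free feed and water and received a starter and then a finisher ration. Group 1 is labelled high in feed efficiency (FE) and also high in residual feed intake (RFI), and group 2 is labelled low in both. Feed efficiency is growth per unit of feed, whereas a high residual feed intake means that a bird eats more than its size and growth predict, so from the labels it cannot be told which group was the more efficient. Differences are given as group 1 minus group 2, because the low group served as the control, per the design text. RNA of several birds was pooled per group, and per the design text each pool was divided in duplicate. P-values then measure only the spread between these samples, which may be technical.

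Each value is the log2 of the array's processed fluorescence intensity minus the 75th percentile of that array, which lay between 978 and 1450 intensity units. Correlation over probes was 0.989 between the group 1 arrays, 0.966 between the group 2 arrays and 0.931 to 0.946 across groups. The sex labels name females for 3 arrays and 1 male with 1 female for group 2 replicate 2. Signal of 8 probes for HINTW, a gene of the female-specific W chromosome, was however at least 500.4-fold lower on group 2 replicate 1 than on the group 1 arrays, with 1 of the probes not well above background there, and 1.22-fold lower on group 2 replicate 2. The label that names a male thus belongs to another array than the one with the least W signal, and central values are also given without group 2 replicate 1. Relative to the other arrays, 416 Z-linked probes had a median of 0.50 on group 2 replicate 1 and -0.16 on replicate 2, and these values go against the stated division of 1 pool for group 2, whose spread may include differences between birds. All arrays lie on a single slide, where group and position cannot be told apart.

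Transcripts of the oxidative phosphorylation genes were mostly higher in group 1, by amounts that for a single gene rarely passed the test. The difference was above 0 for 32 of the 37 genes and below 0 for 5, where 58.5% of all named genes were above 0. The median difference of the 37 was 0.41 on the log2 scale against 0.14 over all named genes. Only CYCS passed the threshold of an adjusted p under 0.05 (limma, Benjamini-Hochberg over all tested probes), as 1 gene higher and 0 lower. Over all named genes 5.75% were called higher in group 1 and 3.92% lower, so the share of oxidative phosphorylation genes called is no larger than the background. At an unadjusted p under 0.05, 12 of the 37 were higher and 1 was lower, where 19.1% of all genes were higher and 12.5% lower. Both group 1 arrays lay above both group 2 arrays for 29 of the 37 (40.3% of all genes), both group 2 arrays lay above for 2 (27.8% of all genes), and the groups overlapped for 6. At 2 arrays per group, exact permutation of the labels (two-sided) allows no p smaller than 0.333 for any one gene.

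**Figure D1:**
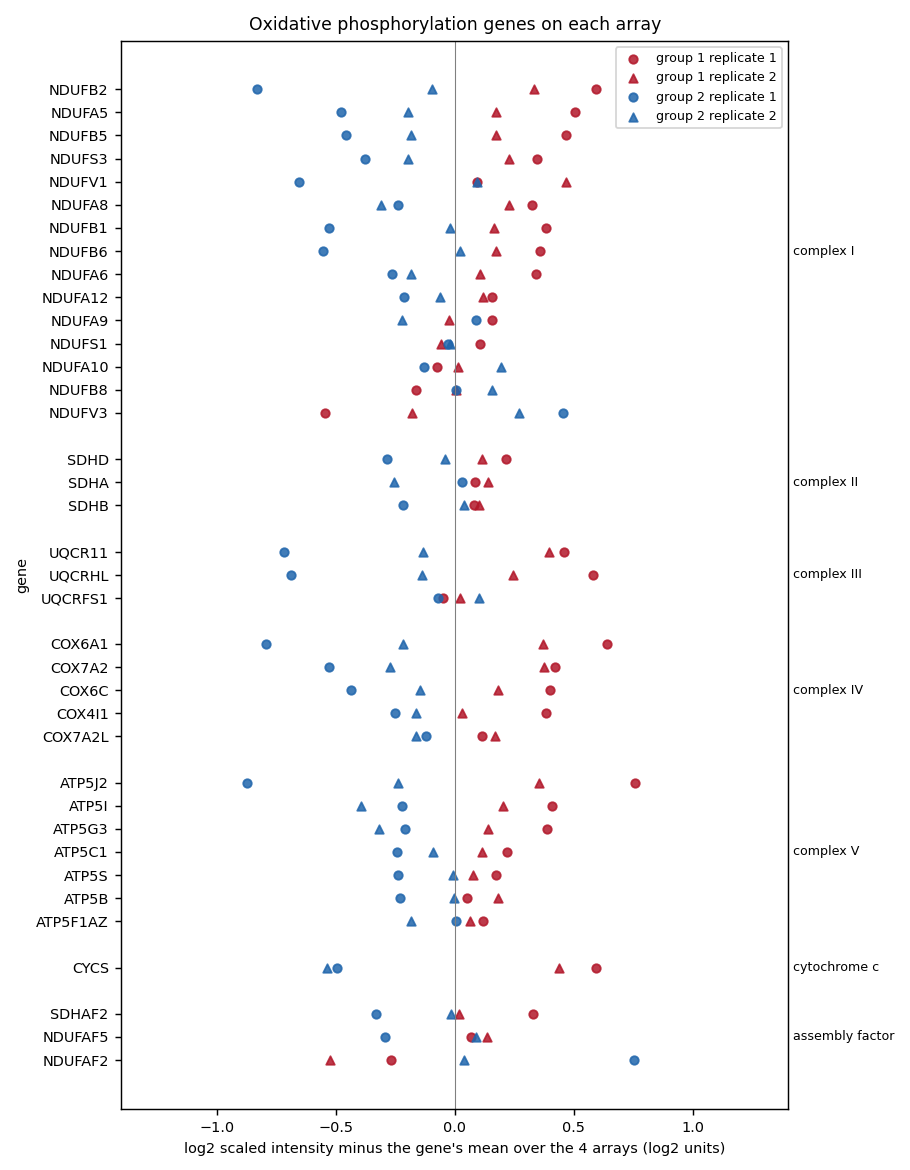
Log2 scaled intensity of each of the 37 genes on each array, as the deviation from that gene's mean over the 4 arrays (x axis, log2 units), with genes on the y axis grouped by complex; circles are replicate 1 and triangles replicate 2, red for group 1 and blue for group 2. Red points lie to the right of blue ones for 29 genes, and the replicate 1 circle of group 2 is the leftmost point for most of the genes with large differences, such as ATP5J2, NDUFB2 and COX6A1.

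The level of these genes was not even within the groups. Median deviations from the 4-array mean over the 37 genes were 0.32 and 0.14 on replicates 1 and 2 of group 1, and -0.25 and -0.14 on replicates 1 and 2 of group 2. Over all named genes the same medians were 0.09, 0.03, -0.07 and -0.04. Group 2 replicate 1 lay below replicate 2 for 27 of the 37 genes, as it did for 53.4% of all genes. Without that array the median difference of the 37 genes was 0.30, against 0.11 over all genes, and CYCS was again the only gene of the set that was called, where 12.5% of all genes were called higher and 8.81% lower. Without group 2 replicate 2 the median was 0.47, and 7 of the genes were called higher and 1 lower, while 14.8% of all genes were called higher and 8.62% lower.

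CYCS codes for cytochrome c, the small soluble protein that carries electrons from complex III to complex IV and that triggers apoptosis when it leaves the mitochondrion. Its level was 4.73 and 4.57 on the group 1 arrays and 3.64 and 3.60 on the group 2 arrays, so the replicates of each group lay close together and far from those of the other. It rose in group 1 by 1.03 ± 0.20 (SE, 2 arrays per group) on the log2 scale, or 2.04-fold, with an adjusted p of 0.0461 by limma. A single probe measures CYCS. The call was lost under median scaling, which centres each array on its median in place of the 75th percentile (adjusted p = 0.0645), under cyclic loess (adjusted p = 0.0522), without the filter on dim probes (adjusted p = 0.0759) and without either group 1 array (adjusted p = 0.373 and 0.256, where limma called no gene of the array).

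Complex I, the NADH dehydrogenase, is the largest complex of the chain. Of its 15 measured genes 12 were above 0, against 58.5% of all named genes. Their median difference was 0.53, with a range of -0.72 to 0.93, and none passed the adjusted threshold. Unadjusted, 5 had a p under 0.05 on the higher side and 1 on the lower side, against 19.1% and 12.5% of all named genes. Group 1 lay wholly above group 2 for 10 of the genes, group 2 lay above for 1, and 4 overlapped. Over all genes group 1 lay wholly above for 40.3% and group 2 for 27.8%.

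The catalytic core of complex I was represented by 3 genes. NDUFV1 codes for the subunit that binds NADH and its flavin, and had levels of 3.61 and 3.98 in group 1 and 2.85 and 3.60 in group 2, a difference of 0.56 ± 0.34 (adjusted p = 0.290, limma). Its lowest group 1 array and its highest group 2 array all but coincided, and the difference was 0.19 without group 2 replicate 1 and 0.94 without replicate 2. NDUFS3, another core subunit of the matrix arm, gave 5.32 and 5.20 in group 1 against 4.59 and 4.77 in group 2, a difference of 0.57 ± 0.20 (adjusted p = 0.127). Its groups were clearly apart on the brightest probe, whereas its second probe gave a difference of -0.0013. NDUFS1, which holds iron-sulphur clusters of the matrix arm, differed by 0.047 ± 0.20 (adjusted p = 0.881) and its groups overlapped.

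Accessory subunits surround that core and take part in its assembly and stability. NDUFB2, of the membrane arm, had the largest difference of the complex, with 7.01 and 6.75 in group 1 and 5.58 and 6.32 in group 2. Its group 2 arrays were 0.74 apart, and the difference of 0.93 ± 0.32 (adjusted p = 0.121, limma) was 0.56 without group 2 replicate 1. NDUFA5 gave 4.91 and 4.58 in group 1 against 3.93 and 4.21 in group 2 on its brightest probe, a difference of 0.67 ± 0.24 (adjusted p = 0.127). Apart from NDUFA9, differences of the other accessory genes above 0 were 0.64 for NDUFB5, 0.55 for NDUFA8 and 0.55 for NDUFB1. NDUFB6 differed by 0.53, NDUFA6 by 0.45 and NDUFA12 by 0.28. Group 1 lay wholly above group 2 for each of these 6. They stand together because their differences were above 0, so the 40.3% of all named genes is not a like background for them. In the whole complex group 1 lay wholly above for 10 of 15 genes. NDUFB1 stood at 0.295 and NDUFB6 at 0.24 without group 2 replicate 1, and NDUFB6 at 0.82 without replicate 2. NDUFA9 had 4.16 and 3.98 in group 1 and 4.10 and 3.79 in group 2, a difference of 0.13 ± 0.23 with overlapping groups.

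The remaining complex I genes lay below 0. NDUFA10 had 4.53 and 4.62 in group 1 and 4.47 and 4.80 in group 2, a difference of -0.064 ± 0.22, and NDUFB8 differed by -0.16 ± 0.21, both with overlapping groups. Leaving out 1 array moved NDUFB8 between -0.076 and -0.24. NDUFV3, a small accessory subunit of the matrix arm, ran the other way with no overlap. Its levels were -1.15 and -0.78 in group 1 and -0.15 and -0.33 in group 2, a difference of -0.72 ± 0.23 (adjusted p = 0.108, limma).

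Complex II, succinate dehydrogenase, is also an enzyme of the citric acid cycle and pumps no protons. Its 3 measured genes had small differences in 1 direction, with a median of 0.23 and a range of 0.18 to 0.33. None had an unadjusted p under 0.05. Group 1 lay above group 2 for each, as it did for 40.3% of all genes. SDHD, a membrane anchor, gave 4.10 and 4.00 in group 1 against 3.60 and 3.85 in group 2, a difference of 0.33 ± 0.21 (adjusted p = 0.321, limma). SDHA, the flavoprotein where succinate is oxidised, differed by 0.23 ± 0.21, and the iron-sulphur subunit SDHB by 0.18 ± 0.21. These differences exceed the median of all named genes by little. They were 0.21 for SDHD, 0.37 for SDHA and 0.054 for SDHB without group 2 replicate 1, and without replicate 2 SDHA stood at 0.085 and SDHB at 0.31.

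Complex III had the largest median of the complexes, 0.82, over only 3 measured genes. UQCR11, a small accessory subunit, gave 5.15 and 5.09 in group 1 and 3.98 and 4.56 in group 2, a difference of 0.85 ± 0.27 (adjusted p = 0.105, limma), and 0.56 without group 2 replicate 1. UQCRHL, the hinge protein that lies near cytochrome c1, gave 6.79 and 6.45 in group 1 and 5.52 and 6.07 in group 2, a difference of 0.82 ± 0.29 (adjusted p = 0.122). Both had clearly separate groups, with group 2 replicate 1 the lowest array. UQCRFS1, the Rieske iron-sulphur protein and a catalytic member of the class, had 4.96 and 5.03 in group 1 and 4.94 and 5.11 in group 2, a difference of -0.029 ± 0.20 with overlapping groups. Leaving out 1 array at a time moved the median of the complex between 0.55 and 1.10.

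Complex IV, cytochrome c oxidase, had group 1 above group 2 for 5 of 5 genes, against 40.3% of all genes. Their median difference was 0.58, with a range of 0.28 to 1.01. COX6A1, an accessory subunit and in mammals the liver form, gave 6.97 and 6.70 in group 1 and 5.53 and 6.11 in group 2. The difference was 1.01 ± 0.28, or 2.01-fold (adjusted p = 0.0847, limma), and 0.72 without group 2 replicate 1. COX7A2, another small accessory subunit, gave 4.78 and 4.73 in group 1 against 3.83 and 4.09 in group 2, a difference of 0.80 ± 0.21 (adjusted p = 0.0755). This gene had tight group 1 values and passed the threshold under the alternative with another background correction and quantile normalization (adjusted p = 0.0406) and with the mean over its probes (adjusted p = 0.0444). Under median scaling the adjusted p of COX7A2 was 0.131, and without the filter on dim probes it was 0.118 (limma). COX6C differed by 0.58 ± 0.23 and COX4I1, a regulatory subunit, by 0.41 ± 0.23, which was 0.24 without group 1 replicate 1. COX7A2L, which in mammals links complexes III and IV into supercomplexes, gave 3.53 and 3.59 in group 1 and 3.30 and 3.26 in group 2, a difference of 0.28 ± 0.19.

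Complex V, ATP synthase, had group 1 above group 2 for 7 of 7 genes, ATP5S included, against 40.3% of all genes. Their median difference was 0.33, with a range of 0.18 to 1.11. ATP5J2, subunit f of the membrane part, had the largest difference of all 37 genes. Its levels were 6.87 and 6.47 in group 1 and 5.24 and 5.87 in group 2, a difference of 1.11 ± 0.31, or 2.16-fold (adjusted p = 0.0845, limma), and 0.79 without group 2 replicate 1. ATP5I, subunit e of the membrane part, gave 6.86 and 6.65 in group 1 against 6.22 and 6.05 in group 2, a difference of 0.61 ± 0.21 (adjusted p = 0.120). Here group 2 replicate 1 was not the lowest array, unlike for ATP5J2, and the gene lies on the Z chromosome. ATP5G3, which codes for a subunit of the rotating c ring, differed by 0.53 ± 0.21.

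The measured genes of the catalytic head of ATP synthase had smaller differences. ATP5B, the beta subunit that carries the catalytic sites, gave 5.91 and 6.04 in group 1 and 5.63 and 5.86 in group 2, a difference of 0.23 ± 0.21. The alpha subunit gene ATP5F1AZ, on the Z chromosome, gave 6.23 and 6.17 in group 1 and 6.12 and 5.93 in group 2, a difference of 0.18 ± 0.20. Those gaps were close to that of all named genes. ATP5C1, the gamma subunit of the central shaft, differed by 0.33 ± 0.20. ATP5S, coupling factor B, which stands here by its symbol only, differed by 0.25 ± 0.21. Without group 2 replicate 1 the values were 0.12 for ATP5B, 0.13 for ATP5S and 0.27 for ATP5F1AZ, and the last was 0.086 without replicate 2.

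**Figure D2:**
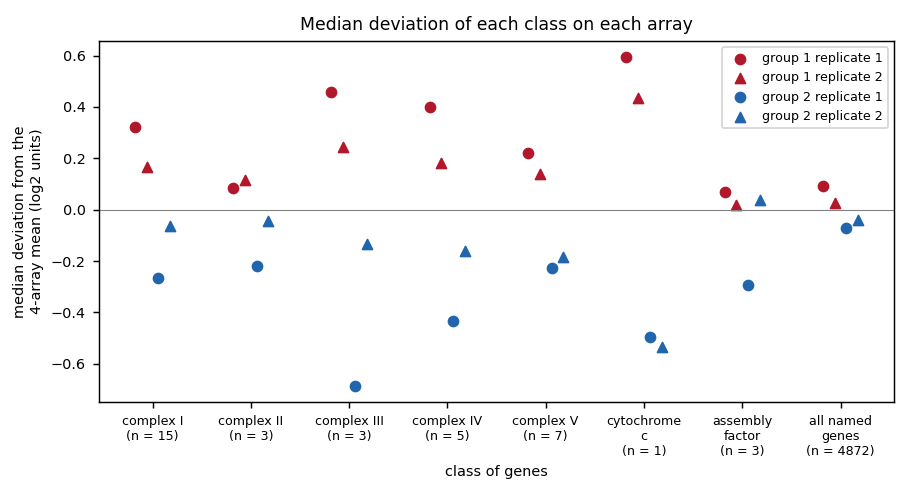
Median deviation from the 4-array mean (y axis, log2 units) on each array for each class of genes (x axis), with all named genes at the right; circles are replicate 1 and triangles replicate 2, red for group 1 and blue for group 2. Both group 1 arrays lie above both group 2 arrays for complexes I to V and cytochrome c but not for the assembly factors, and complex III is widest apart among the complexes, from 0.46 to -0.69.

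Medians by complex thus ran from 0.23 in complex II through 0.33 in V, 0.53 in I and 0.58 in IV to 0.82 in III. Per-array medians of complex I were 0.32 and 0.17 in group 1 and -0.27 and -0.06 in group 2, and those of complex V were 0.22 and 0.14 against -0.23 and -0.18. Without group 2 replicate 1 the medians were 0.21 for complex II, 0.27 for V, 0.29 for I, 0.44 for IV and 0.55 for III. The order of neighbouring complexes was not tested and the ranges of their genes overlap. Grouped by role, after the values were known, 9 core subunits that carry catalysis or electron transfer had a median of 0.23, with 2 at 0.5 or more. The 22 accessory subunits had a median of 0.55, with 14 at 0.5 or more. Of these 22, 10 had an unadjusted p under 0.05 on the higher side, against 1 of the core subunits and 19.1% of all genes. The other 6 genes (cytochrome c, the assembly factors, COX7A2L and ATP5S) had a median of 0.27. ATP5G3, whose c ring carries the proton path, was counted as accessory here, and with it among the core the medians were 0.23 over 10 core and 0.55 over 21 accessory genes. Only ATP5G3 was moved in this way, though other genes, such as SDHD and ATP5C1, could also be assigned differently. Because the roles were assigned with the values in view, the grouping is a description only.

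Assembly factors chosen by their symbols did not share 1 direction. SDHAF2, which helps to attach the flavin to SDHA, differed by 0.35 ± 0.24, and NDUFAF5, a factor of complex I, by 0.20 ± 0.23. NDUFAF2, another complex I factor that lies on the Z chromosome, had 0.71 and 0.45 in group 1 and 1.73 and 1.01 in group 2, a difference of -0.79 ± 0.32 (adjusted p = 0.155, limma). It was -0.43 without group 2 replicate 1, and -1.15 and called (adjusted p = 0.0362) without replicate 2. SDHAF2 stood at 0.19 without group 1 replicate 1 or group 2 replicate 1, and NDUFAF5 at 0.014 without group 2 replicate 1 and 0.39 without replicate 2. The highest array of NDUFAF2 was group 2 replicate 1, the array with the raised Z-linked signal. How far sex chromosome content enters the values of the 3 Z-linked genes was not tested. Without the assembly factors the median difference of the set was 0.49.

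Agreement among probes of a gene bears on how far the brightest probe can be trusted. The 37 genes had 78 measured probes, of which 59 were above 0, with a median of 0.34. Of 23 genes with several probes, 13 had every probe on the same side of 0 and 10 did not, and 14 genes had a single probe. The 41 probes that were not the brightest of their gene had a median of 0.24, with 27 above 0. By their brightest probes, 58.5% of all named genes were above 0, with a median of 0.14. Agreement was close for some of the largest differences: the second probe gave 1.00 for ATP5J2 and 1.00 for COX6A1, and the 3 probes of COX7A2 gave 0.72 to 0.80.

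Disagreement was strongest for NDUFA5. Its dimmest probe read -1.54 and -1.50 in group 1 and -0.23 and -0.33 in group 2, so it was called lower by 1.24 on the log2 scale (difference -1.24 ± 0.20, adjusted p = 0.0346, limma), opposite to the brightest probe, and its remaining probe gave -0.50. The direction of NDUFA5 is therefore uncertain. NDUFS1 had a dim probe with 1.62 (adjusted p = 0.0543) beside bright ones near 0. For ATP5B the other probes gave -0.41 and -0.54, and for NDUFA9 they gave -0.09, -0.44 and -0.63. In ATP5F1AZ, whose Z and W copies are close relatives that a probe may not tell apart, 6 probes ran from -0.70 to 0.90. Smaller disagreements were seen for COX7A2L, NDUFA10, NDUFV1, SDHD and UQCRFS1.

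**Figure D3:**
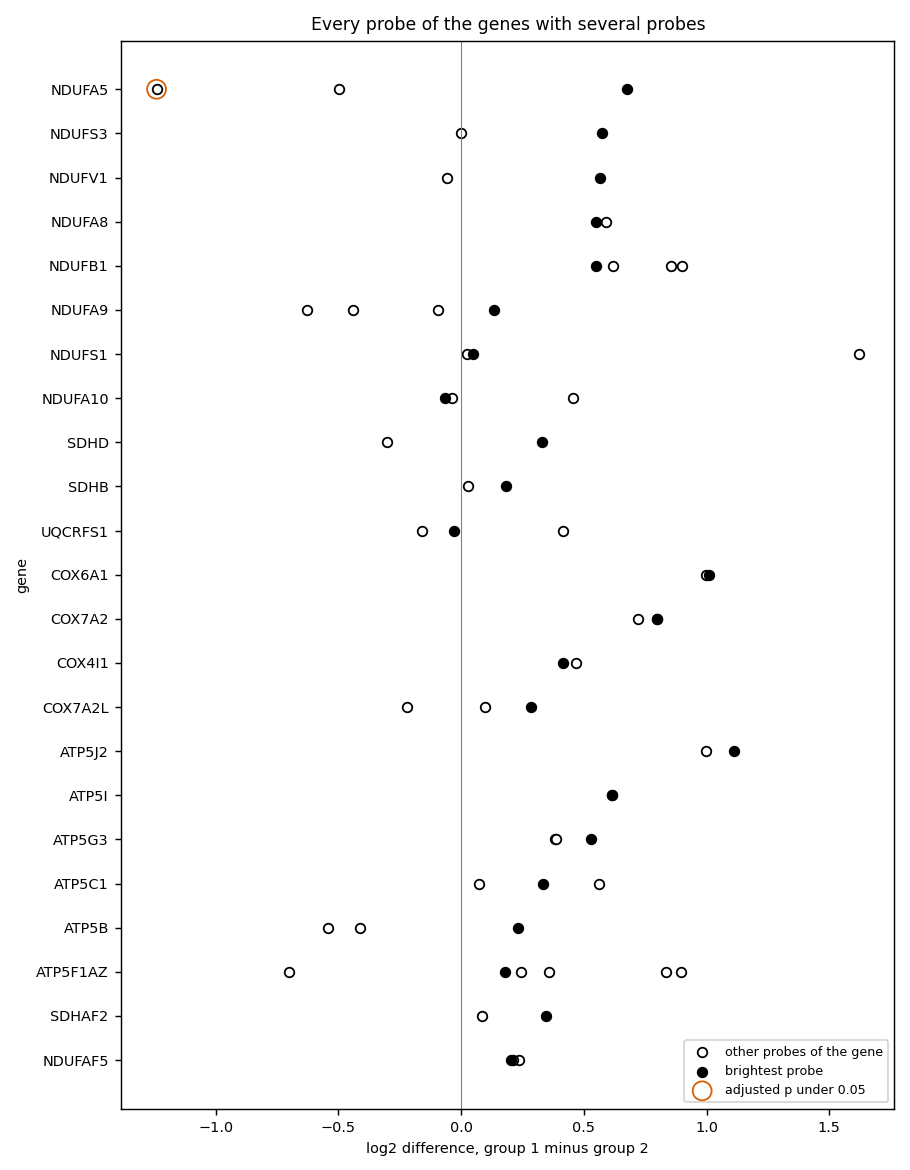
Log2 difference, group 1 minus group 2 (x axis), of every measured probe of the 23 genes with several probes (y axis); filled points are the brightest probe of a gene, open points its other probes, and an orange ring marks an adjusted p under 0.05. Only a dim probe of NDUFA5 is ringed, at -1.24, and 10 genes have probes on both sides of 0.

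Probes of these genes were mostly bright, and the difference between groups varied with signal level over all genes. By mean signal, 33 of the 37 lay in the brightest decile of measured probes, where their median difference was 0.53 against 0.13 over the 1080 genes of that decile, and 29 of the 33 exceeded the latter. In that decile 1.67% of genes were called higher and 39.1% had both group 1 arrays above both group 2 arrays. The 4 dimmer genes had a median of -0.26. Of these, 1 lay in decile 7, at -0.72 against a median of 0.013 over all genes there. The other 3 lay in decile 8, with a median of 0.20 against -0.020. Across deciles, the median of all genes ran from 0.74 in the dimmest to -0.020 in decile 8.

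**Figure D4:**
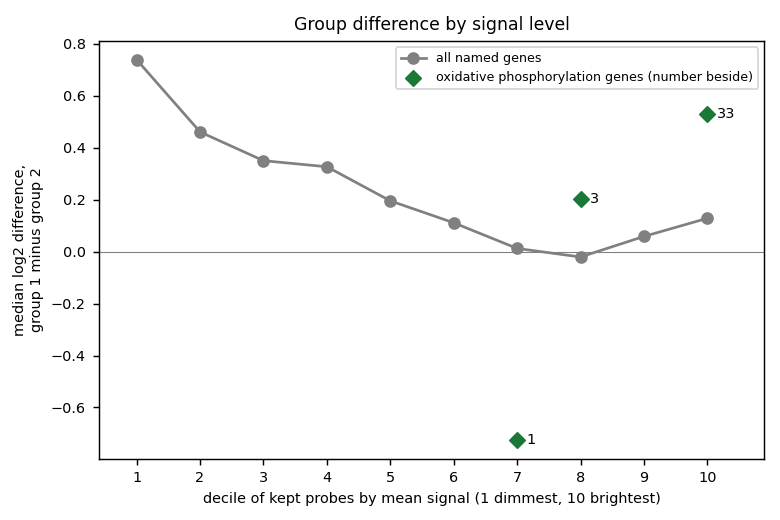
Median log2 difference, group 1 minus group 2 (y axis), by decile of measured probes ordered by mean signal (x axis, 1 dimmest to 10 brightest); the grey line is all named genes and green diamonds are the oxidative phosphorylation genes, with their number. The 33 genes in the brightest decile have a median of 0.53, above the 0.13 of all genes there.

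The zero line depended on scaling. Median scaling subtracts another constant from each array, which lowered the difference of every gene by 0.21, that of all genes from a median of 0.14 to -0.08 and that of the set from 0.41 to 0.20. The excess of the set over all genes, 0.28, is the same under both by construction. It was 0.29 with normexp and quantile normalization, 0.27 with quantile normalization alone and 0.25 with cyclic loess, which do not shift all genes alike. Under median scaling 27 of the 37 genes were above 0, 30 exceeded the median of all named genes, and none was called. By limma 4 had an unadjusted p under 0.05 on the higher side and 2 on the lower side. Over all genes those shares under median scaling were 12.3% and 19.9%. Over the settings that keep the 37 genes, 1 value each, the excess lay between 0.18, without group 2 replicate 1, and 0.34, without group 2 replicate 2.

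**Figure D5:**
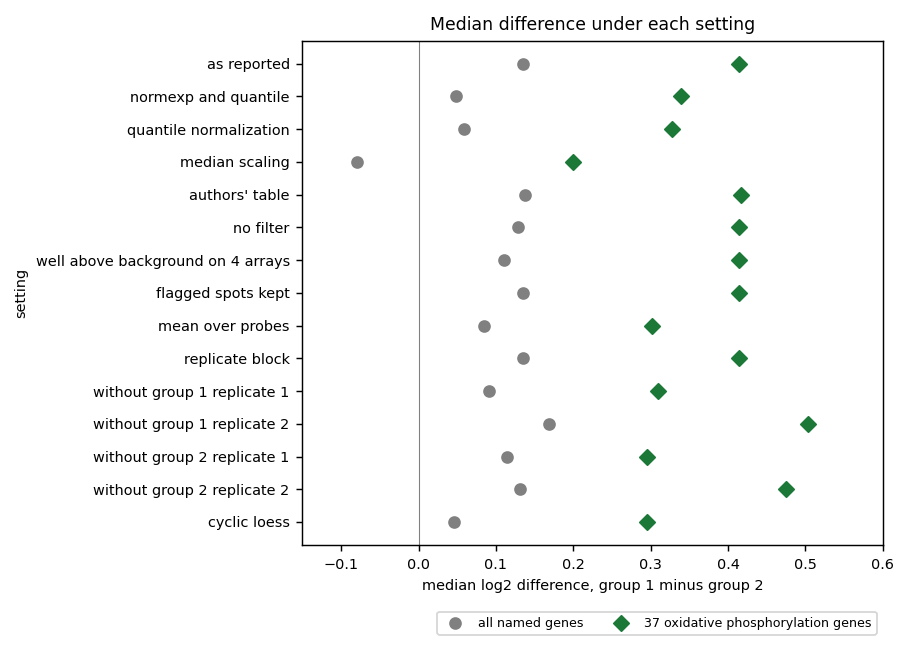
Median log2 difference, group 1 minus group 2 (x axis), under each processing setting (y axis); green diamonds are the 37 oxidative phosphorylation genes and grey circles all named genes. The diamond lies to the right of the circle in every setting shown, and under median scaling the circle falls below 0, at -0.08.

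Genes that serve the same pathway were read from 4 further lists. Of 41 listed assembly factors outside the symbol rule, 13 were measured, with a median of 0.27, 1 called higher and 0 lower. That median was 0.058 under median scaling, 0.16 with the mean over probes and 0.12 without group 2 replicate 1. The gene called was COX10, which makes the heme A precursor that complex IV needs. COX10 stood at 2.16 and 2.07 in group 1 and 0.99 and 0.84 in group 2, and rose in group 1 by 1.21 ± 0.20 on the log2 scale (adjusted p = 0.0372, limma). Like CYCS, it lost the call without the filter on dim probes (adjusted p = 0.0627) and without either group 1 array (adjusted p = 0.332 and 0.239).

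Enzymes that feed electrons to ubiquinone or make ubiquinone had 6 of 21 genes measured, none called, with a median of 0.57. The largest difference there was 0.99 ± 0.35 for COQ8A, a kinase-like protein of ubiquinone synthesis (adjusted p = 0.128, limma). It was 0.55 without group 2 replicate 1, and without replicate 2 it was 1.43 and called (adjusted p = 0.0254). Carriers of the inner membrane and related transporters had 7 of 17 measured, none called, with a median of 0.76, which was 0.19 with normexp and quantile normalization, 0.52 with quantile normalization and 0.50 with the filter applied on all 4 arrays. SLC25A4, an ADP/ATP carrier that exports the ATP made by complex V, had the largest, with 4.09 and 3.95 in group 1 against 2.89 and 3.12 in group 2, a difference of 1.02 ± 0.21 just short of the threshold (adjusted p = 0.0517). SLC25A4 passed it with normexp and quantile normalization (adjusted p = 0.0303, limma) and with the filter on all 4 arrays (adjusted p = 0.0466). It missed it under median scaling (difference 0.80, adjusted p = 0.0741), under cyclic loess (adjusted p = 0.0544) and without the filter on dim probes (adjusted p = 0.0830). With the mean over probes its difference was 0.72. Without group 2 replicate 1 it was 0.90, and without replicate 2 it was 1.13. Transcription factors and coactivators of mitochondrial genes had 9 of 24 measured, none called, and a median of 0.09, which was -0.13 under median scaling, -0.066 without group 2 replicate 1 and 0.25 without replicate 2. NRF1, a transcription factor of respiratory chain genes, differed by 0.77 ± 0.28 (adjusted p = 0.136, limma). GABPA (-0.62, adjusted p = 0.102, limma) and MTERF3 (-0.52) of the same list went the other way. Both group 1 arrays lay above both group 2 arrays for 2 of the 9 genes, against 40.3% of all genes. Both group 2 arrays lay above for 3, against 27.8% of all genes. The fit gave PPARGC1A, a coactivator of mitochondrial biogenesis, a value of -1.15 ± 0.55 (adjusted p = 0.210), but its signal was well above background on only 1 of the group 1 arrays, so the size is not measured. PPARGC1A passed the filter on dim probes only through group 2, where it is higher, so its value is not read as a result. Without group 2 replicate 1 the same fit gave -1.93, and without replicate 2 it gave -0.37.

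Markers of other cell types moved with the groups, and in bulk RNA fewer cells of a type and less RNA per cell cannot be told apart. The background for the counts of calls below is 5.75% of all named genes called higher and 3.92% lower. Hepatocyte markers, 12 of 16 measured, had a median difference of 0.054 with none called, and 8 of the 12 were above 0. That median ran from -0.16 to 0.33 without 1 array at a time. The largest difference was -1.41 ± 0.41 for VTN (adjusted p = 0.0884, limma), with both group 2 arrays above. The summed level of the list, the log2 of the sum of scaled intensities, was 10.51 to 10.96 in group 1 and 10.55 to 10.80 in group 2. Erythroid markers, 10 of 20 measured, had a median of 2.46 with 3 called higher (SLC4A1, RHAG and HBBR). RHAG and HBE1 passed the filter on dim probes only through group 1, where they are higher. The call of RHAG is therefore not read as a result. With the filter applied on all 4 arrays the list median was 2.18. HBZ went the other way, with both group 2 arrays above (difference -0.81). The summed level of the erythroid list was 8.38 to 8.64 in group 1, 5.46 on group 2 replicate 1 and 7.26 on group 2 replicate 2. HBBR, SLC4A1 and RHAG lost their calls without the filter on dim probes, and HBBR and SLC4A1 also under quantile normalization and median scaling. HBBR, whose adjusted p of 0.04996 lay just under the threshold, lost it also in the authors' deposited values, with outlier spots kept and under cyclic loess. The erythroid median was 1.60 without group 2 replicate 1. The array with the lowest erythroid level, group 2 replicate 1, also had the lowest median of the oxidative phosphorylation genes. On it 27 of the 37 genes lay below group 2 replicate 2, as did 53.4% of all genes. CYCS did not (3.64 against 3.60). The same array had the least W signal. Whether these traits are linked was not tested. Endothelial and stellate markers, 11 of 17 measured, had 6 called higher (COL1A2, COL3A1, COL5A1, COL4A1, DCN and LUM), all of them collagen or matrix genes. The endothelial genes CDH5 (0.53, overlapping groups), KDR (0.26) and FLT1 were not called. FLT1 was not well above background on a group 2 array. ACTA2 (1.01) and VIM (0.74) were not called either. The summed level of the list was 5.02 to 5.17 in group 1 against 3.41 to 3.50 in group 2. COL4A1 and LUM lost their calls without the filter on dim probes.

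Enterocyte markers, 11 of 15 measured, had 6 called higher and 0 lower, against 5.75% and 3.92% of all named genes. RBP2, FABP2, CDX2 and CDH17 passed the filter on dim probes only through group 1, where they are high. The count of calls is therefore not read as a result. The list median of 1.26 was 0.36 with the filter applied on all 4 arrays. FABP6 went the other way, with both group 2 arrays above (difference -0.71). RBP2 was at least 199.5-fold, FABP2 at least 95.7-fold, CDX2 at least 31.6-fold and CDH17 at least 5.41-fold higher in group 1, as none of these was well above background on a group 2 array, and VIL1 and SLC5A1 were higher by 1.26 and 2.66 on the log2 scale. VIL1 and SLC5A1 lost their calls without the filter on dim probes, and VIL1 also under median scaling (adjusted p = 0.0551). Such a bound sets the group 1 mean against the higher of the probe's own signal and the lowest signal well above background on each group 2 array. Their summed level, to which liver genes such as APOA4 contribute, was 8.50 to 8.82 in group 1 and 8.47 to 8.49 in group 2. Muscle markers had 5 of 17 measured and 7 more on the array that did not pass the filter on dim probes. Among the 5 measured genes MYL3 was higher in group 1 by a factor of at least 2.44 and MYL1 by at least 1.45. Both passed the filter on dim probes only through group 1, where they are higher. Their calls are therefore not read as a result. TNNC1, well above background on all 4 arrays, was called lower in group 1, by 1.76 on the log2 scale (adjusted p = 0.0264, limma). The other 4 of the 5 genes had differences above 0. The summed level was 1.43 to 1.60 in group 1 against 3.05 to 3.28 in group 2. It follows TNNC1 almost alone, which stood at 1.30 and 1.46 in group 1 and 3.26 and 3.02 in group 2. With normexp and quantile normalization MYL1 and MYL3 were not called (adjusted p = 0.293 and 0.0709), and MYL3 was not called under quantile normalization (adjusted p = 0.0531) or without the filter on dim probes (adjusted p = 0.0509). The part of these markers in the values of the oxidative phosphorylation genes was not tested.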

How the data were processed

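Liver RNA of 4 samples was hybridised to 1-colour Agilent arrays with the dye Cy3. The deposited scanner files hold intensity on a linear scale, and per the file headers the authors used Agilent Feature Extraction 11.5.1.1, whose processed column is already background-subtracted. The authors' deposited series table is in log2 units, and its values equalled the same scaled signal centred on each probe's median (Pearson r = 1.00 on every array, column medians 0.08, 0.02, -0.09 and -0.02), so scale, centring and direction were settled from the values. It served as an alternative.

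From each log2 processed intensity the array's 75th percentile was subtracted, taken over 43803 spots that are no controls. Of 43603 probes, 33869 passed the filter (well above background on both arrays of a group), and 33866 were tested. Genes were named by unversioned RefSeq accession (11935 probes, 5382 genes) in a gene table of GRCg7b. The array design was drawn on galGal3, so no coordinates are given. A gene is its brightest kept probe.

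The group comparison used limma 3.58.1 under R 4.3.3 (lmFit, eBayes, 2.60 prior and 2 residual degrees of freedom). Benjamini-Hochberg adjustment ran over all tested probes, with a threshold of 0.05. The fit was also run on simulated data of 33841 probes, 200 of them changed by 4 on the log2 scale. It recovered the direction of all 200 but called only 127 of them, and it called 4 unchanged probes. In the data 2504 probes were called higher and 1295 lower, far more than the number changed in the simulation. The adjusted threshold was therefore stricter in the simulation, and its share of calls does not carry over to the data. Precision is limited by the number of arrays. Every gene of the set is named, with values on each array for those called, the largest differences in each complex, Z-linked genes, genes whose probes disagree and UQCRHL and COX7A2, which were chosen after their values were seen. Of the other lists the text names genes past the test, or else the largest difference. NRF1, GABPA, MTERF3, HBE1 and HBZ were chosen after their values were seen. The genes and lists were chosen with earlier results of these data known. The normexp alternative (offset 50) used the median signal, the foreground column given in the files.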

Additional observations from a re-analysis of the deposited data

How the results depend on the processing

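The count of oxidative phosphorylation genes called higher was 1, and it was 3 with normexp and quantile normalization, 2 with the mean over probes, and 0 with median scaling, without the filter on dim probes, with the replicate block and with cyclic loess, a setting added after the data were seen. Without each array in turn it was 0 to 7, and the count called lower was 0 to 1. With every kept probe counted, also added later, 1 gene was called lower. The replicate numbers share only a number (correlation of their deviations 0.0328 between groups). With the replicate block, CYCS had an adjusted p of 0.0826 by limma, no other gene of the set changed its call, COX10 (0.0639), VIL1 (0.0650) and COL4A1 (0.0586) of the other lists lost theirs, and calls over all genes were 188 higher and 110 lower instead of 280 and 191. Calls over all genes were also 102 and 54 without the filter, 443 and 308 with the mean over probes, 391 and 345 with normexp and quantile, 203 and 302 with median scaling, 607 and 429 without group 2 replicate 1, 721 and 420 without group 2 replicate 2, and 0 without either group 1 array, where an unadjusted p under 0.05 was reached by 336 higher and 222 lower without replicate 1 and by 434 and 282 without replicate 2. The cause was not tested.

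Median differences kept their direction for the whole set and for complexes I to V under the settings run. With median scaling they were 0.20 for the set, 0.32 for complex I, 0.0123 for II, 0.37 for IV and 0.12 for V. With the mean over probes they were 0.30 for the set, 0.29 for complex I and 0.11 for II. With cyclic loess the set had 0.30 and complex V 0.26. Leaving out 1 array at a time gave 0.30 to 0.50 for the set, 0.29 to 0.57 for complex I, 0.20 to 0.31 for II, 0.55 to 1.10 for III, 0.44 to 0.73 for IV and 0.27 to 0.41 for V.

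Median scaling lowers every gene by the same 0.21, so differences between 0 and that value turn by construction. It gave -0.0347 for ATP5F1AZ, -0.0827 for NDUFA9, -0.0107 for NDUFAF5, -0.17 for NDUFS1 and -0.0320 for SDHB. The mean over probes gave -0.24 for ATP5B, 0.12 for NDUFA10, -0.35 for NDUFA5, -0.26 for NDUFA9 and 0.0752 for UQCRFS1, and cyclic loess gave -0.0205 for NDUFS1. Without 1 array at a time, NDUFS1 ran from -0.0334 to 0.13, UQCRFS1 from -0.12 to 0.0579, NDUFA10 from -0.23 to 0.10 and NDUFA9 from -0.0233 to 0.29. The authors' table, quantile normalization, outlier spots kept and a filter on all 4 arrays left the counts called at the adjusted threshold as they were. They turned no gene of the set. The 12 genes higher at an unadjusted p under 0.05 by limma became 11 with quantile normalization and 13 with that filter. The slide could not be used as a block, since all arrays share it.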
